A study of Rattus norvegicus with 15 samples.

Results

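Potassium channel genes were examined in RNA sequencing read counts of rat hippocampus and cortex, with and without vagus nerve stimulation. The members are all transcript records whose rat gene symbol starts with Kcn, which gave 110 records of 91 genes among the 18278 records counted. Of these, 78 records of 77 genes had 10 or more reads in 3 or more hippocampal libraries, so the described records were selected on their hippocampal read numbers. Channel classes follow the gene symbols.

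The rats were Rattus norvegicus, of a strain and age that the labels do not give. Stimulated rats (VNS) were implanted with a device and stimulated for 30 min a day on 4 days, whereas control rats carried a sham device. Hippocampal libraries (4 VNS, 3 control) came from rats of which all did a task of novelty preference for 10 min on days 2 to 4, and were made from ribosome-depleted total RNA. Cortex libraries (4 VNS, 4 control) were made from polyA-selected RNA. No label says that replicate libraries are from separate animals, so p-values measure the spread between libraries, which may in part be technical.

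Potassium channels let potassium leave or enter a cell and so set its resting potential, the shape and rate of its action potentials, and its response to transmitters. Voltage-gated (Kv) channels are tetramers of alpha subunits with auxiliary partners, and their subfamilies differ in how fast they open and close. The Kv3 (Kcnc) genes are known for fast-spiking neurons and the Kv1 (Kcna) genes for axons. The Kv7 (Kcnq) genes carry the M-current of principal neurons, and the inward rectifiers (Kcnj) include the G protein-gated channels of neurons and the potassium-buffering channels of glia.

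The hippocampal libraries held 16728486 to 51463555 counts, of which ribosomal RNA records took 7.11% to 73.1%, and 17161 to 280737 reads fell in Kcn records. The smallest of these numbers belonged to VNS 3, in which 63 of the 78 described records reached 10 reads. Expression is given as CPM, the read count of a record divided by the TMM-scaled library size and set to a common total. Libraries labelled hippocampal control 1 and control 2 stood apart from the other 5, and went against their tissue label. The forebrain excitatory neuron gene Neurod6 had 0.65 and 1.05 CPM in them, 81.4 CPM in control 3 and 58.9 to 207 CPM after VNS. The summed CPM of 7 forebrain excitatory markers was 14.5 to 248 in these libraries and 1317 to 2077 in the others, and none of the 7 was at 0. Hippocampal granule and pyramidal cell markers summed to 158 to 195 against 647 to 1065. Of these, Prox1 (89.8 and 15.3 against 80.0 to 164 CPM) and C1ql2 (3.73 and 9.33 against 4.58 to 63.4 CPM) overlapped, and the rest were lower in both. Thalamic and brainstem excitatory markers summed to 407 to 1610 against 76.2 to 181 (Tnnt1, of that list, was at 0 in all 7 libraries). Slc17a6 and Lef1 were higher in both, and Slc17a6 made up most of the sum in control 2 (347 CPM). There Prkcd (11.8 against 6.19 to 41.2 CPM) and Gbx2 (1.70 against 0 to 1.99 CPM) overlapped. Plekhg1 in control 2 was below the others (31.7 against 46.1 to 76.1 CPM). GABAergic neuron markers summed to 706 to 875 against 355 to 445, oligodendrocyte markers to 6362 to 7781 against 2059 to 4901, and astrocyte markers to 1077 to 1219 against 1513 to 2547. Sst, of the GABAergic list, went the other way (4.07 and 25.7 against 34.9 to 52.5 CPM). Pvalb (104 and 24.8 against 18.2 to 26.0 CPM) and Vip (36.4 and 11.5 against 7.32 to 16.2 CPM) overlapped, through control 2. The astrocyte sum was mainly Gfap and Gja1. Gfap overlapped, through control 1 (777 and 478 against 755 to 1996 CPM), and Gja1 was lower in both (359 and 482 against 495 to 677 CPM). Aldh1l1 was higher in both (30.8 and 49.5 against 15.1 to 29.6 CPM) and Gjb6 overlapped (44.9 and 61.0 against 21.9 to 45.6 CPM). Aqp4 and Slc1a3 were at 0 in all 7 libraries. The part of these markers in any difference below was not tested. In bulk tissue, fewer cells of a type and less RNA per cell cannot be told apart.

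Levels were compared between genes per kb of record length, in the 5 hippocampal libraries with Neurod6 at 5 CPM or more. Kcnab2, the beta subunit of Kv1 channels, was at 206 ± 35.7 CPM per kb (SD, n = 5) and headed the list. Kcnj10, the inward rectifier of astrocytes and oligodendrocytes, was at 56.2 ± 8.10 CPM per kb. Kcnq3, an M-current subunit, was at 48.1 ± 5.02 CPM per kb. Kcnj3 (43.9 ± 1.84), Kcna1 (43.0 ± 1.86), Kcnd2 (42.4 ± 11.1) and Kcnab1 (42.4 ± 8.38) came next in CPM per kb, and these 4 neighbours differed by less than their spread between libraries. Kcnma1, the large-conductance calcium-activated channel, was at 34.8 ± 4.70 CPM per kb.

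The order was another one in controls 1 and 2. Kcnab2 and Kcnj10 headed the list there at 113 and 94.3 CPM per kb (means of 2 libraries). Kcna1 (85.1), Kcna2 (77.0) and Kcnc1 (70.7) took the next places in CPM per kb, whereas Kcnc1, a Kv3 channel of fast-spiking neurons, was in place 19 in the other 5 libraries at 21.96 ± 2.33 CPM per kb. Kcnj16, which pairs with Kcnj10 in glia, was in place 10 in controls 1 and 2 and in place 48 in the others. Kcnh3, a forebrain channel of the ether-à-go-go family, stood in place 18 in the 5 other libraries and in place 69 in controls 1 and 2.

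The summed level of all 78 described records did not follow this split. It was 4473 and 3056 CPM in controls 1 and 2, 3825 CPM in control 3, and 4157, 3713, 3489 and 3766 CPM in VNS 1 to 4. The 2 libraries low in Neurod6 were thus the highest and the lowest of the 7. Single classes were apart. Kv1 records summed to 746 and 559 CPM in controls 1 and 2 and to 263 to 362 CPM in the others (mean 311 ± 37.6, SD, n = 5). Kv3 records summed to 941 and 631 CPM against 314 to 379 CPM (mean 352 ± 28.0). The silent Kv records, whose subunits work only in tetramers with Kv2 subunits, summed to 162 and 102 CPM against 196 to 234 CPM. The Kcnq records, at 647 and 268 CPM against 635 to 834 CPM, overlapped, because control 1 lay among the other libraries.

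**Figure D1:**
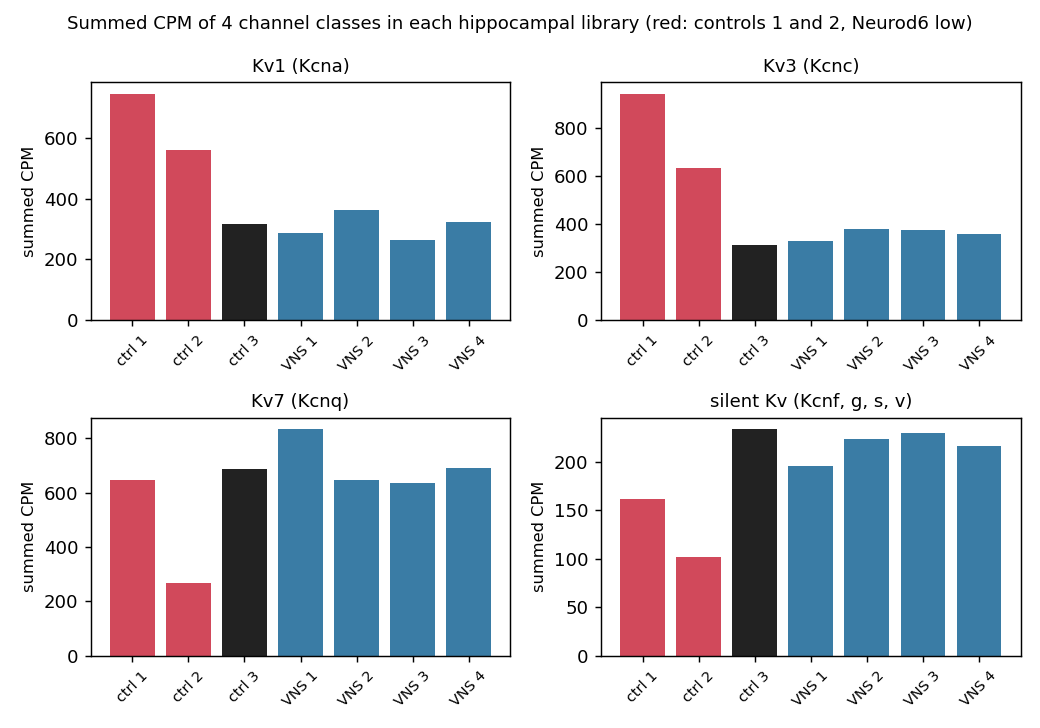
Summed CPM (vertical axis, from 0) of the Kv1, Kv3, Kv7 and silent Kv records in each of the 7 hippocampal libraries, 1 bar a library. Red bars are the controls with Neurod6 under 5 CPM, the black bar is control 3 and blue bars are VNS libraries; red bars are the tallest for Kv1 and Kv3 and the shortest for the silent Kv class.

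The description of each record by the Neurod6 level of its library carries no test, since the split was made from measured values. Of the 78 described records, 21 were higher in both controls 1 and 2 than in each of the other 5 libraries (26.9%; 17.3% of all 12728 records tested), 19 were lower in both (24.4%; 18.3% of all records) and 38 overlapped. The mean was at least 2-fold higher in controls 1 and 2 for 18 of the 78 records (6.97% of all records) and at least 2-fold lower for 16 (8.3% of all records). In 33 of these 34 records control 3 was nearer to the VNS mean than to the mean of controls 1 and 2. In 27 of them control 3 lay within the VNS range. Control 3 is among the 5 libraries that selected these records, so its nearness to VNS is in part fixed by that selection. Over all 78 described records control 3 lay within the VNS range in 64, above it in 9 and below it in 5. These counts for control 3 have no share over all records beside them, so whether they are particular to Kcn records was not tested.

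**Figure D2:**
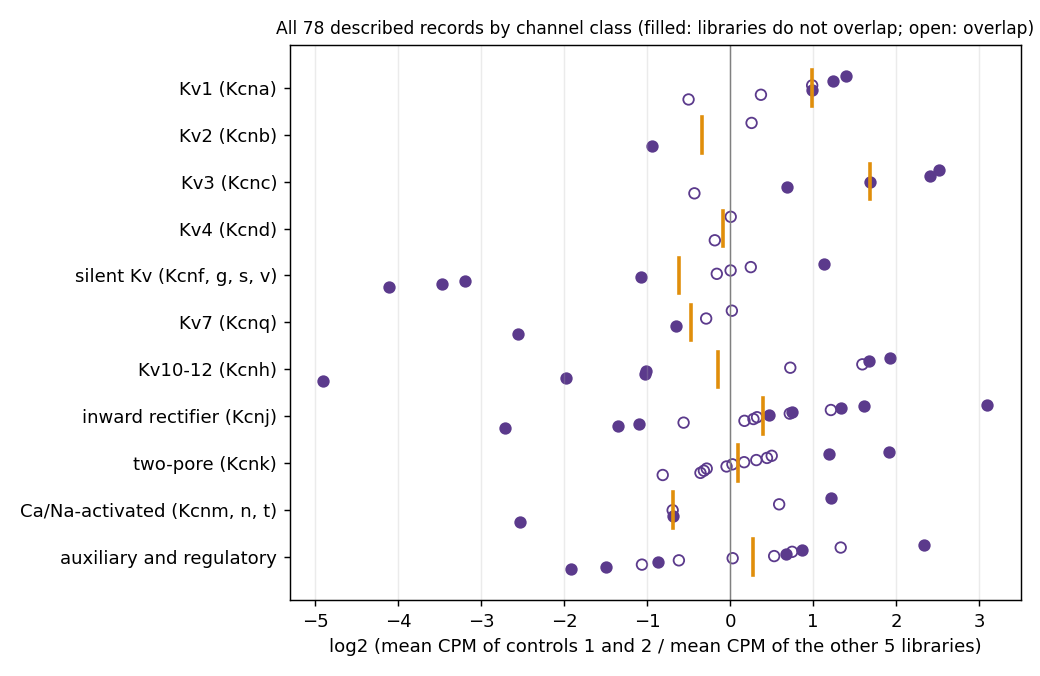
Log2 ratio of mean CPM in controls 1 and 2 to mean CPM in the other 5 hippocampal libraries (horizontal axis) for each of the 78 described records, 1 point each, in rows by channel class. Filled points are the 40 records whose libraries do not overlap between the sides, open points the 38 that overlap, and orange bars the class medians, which run from -0.69 for calcium- and sodium-activated channels to 1.69 for Kv3.

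Among the Kv3 records 4 of 5 were higher in both controls 1 and 2. Kcnc1 was at 310 and 232 CPM in them, at 77.7 CPM in control 3 and at 81.6, 96.9, 75.2 and 89.6 CPM in VNS 1 to 4. Control 3 sat inside the VNS range. Kcnc2, which also forms fast Kv3 channels, has 2 records, and reads shared by them were assigned to neither. NM_139216 was at 211 and 58.8 CPM in controls 1 and 2, 25.9 CPM in control 3 and 17.3 to 33.2 CPM after VNS, and NM_139217 at 105 and 30.3, 11.5, and 9.84 to 18.6 CPM. Both records were 3 times or more higher in control 1 than in control 2. Kcnc4 overlapped, with 21.3 CPM in control 1, 80.1 CPM in control 2 and 37.2 to 83.6 CPM in the others.

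Among the Kv1 records 3 of 6 were higher in both, and none was lower in both. Kcna2, an axonal channel, was at 197 and 158 CPM in controls 1 and 2, 75.6 CPM in control 3 and 73.1, 80.7, 65.5 and 81.5 CPM in VNS 1 to 4. Kcna6 was at 293 and 262 CPM, 117 CPM in control 3 and 79.6, 141, 68.7 and 122 CPM after VNS. Kcna1, the channel of episodic ataxia, was at 206 and 90.8 CPM against 71.8 to 80.0 CPM, so that only control 1 was far from the rest. Kcnab3, a beta subunit of these channels, was at 86.3 and 43.8 CPM in controls 1 and 2, 12.7 CPM in control 3 and 7.93, 13.9, 14.8 and 15.3 CPM after VNS. Its paralogue Kcnab2 lay on the other side, at 198 and 161 CPM against 256 to 403 CPM.

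Inward rectifiers lay on both sides. Kcnj16 had the highest ratio of all records with a mean of at least 1 CPM (log2 ratio 3.10). It was at 57.2 and 82.6 CPM in controls 1 and 2, 5.96 CPM in control 3 and 4.86, 13.6, 11.4 and 5.05 CPM in VNS 1 to 4. Kcnj10, its partner in glia, was at 135 and 136 CPM against 62.0 to 92.5 CPM in the other 5. The summed oligodendrocyte markers were higher in controls 1 and 2, with overlap for Mbp, Mag and Opalin. The astrocyte markers went both ways, as given above. The part of either list in these values was not tested. Kcnj12, a strong inward rectifier, was at 44.1 and 24.6 CPM against 5.29 to 15.3 CPM. On the other side were Kcnj3 and Kcnj6, the G protein-gated subunits of forebrain neurons, and Kcnj4, a strong inward rectifier known from forebrain. Kcnj3 was at 45.4 and 29.5 CPM against 76.0 to 84.2 CPM, and Kcnj6 at 165 and 129 CPM against 300.4 to 547 CPM. Kcnj4 was at 18.6 and 0.76 CPM in controls 1 and 2, 79.3 CPM in control 3 and 41.6, 82.3, 48.8 and 65.8 CPM after VNS.

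The ether-à-go-go family (Kcnh) held records at both ends. Kcnh3 had the lowest ratio of all described records with a mean of at least 1 CPM (log2 ratio -4.90). It was at 5.29 and 0.42 CPM in controls 1 and 2, 103 CPM in control 3 and 72.7, 84.9, 71.6 and 94.4 CPM in VNS 1 to 4. The count file places this record on chromosome X from 115293665 to 115414776 in rn5, the RefSeq table of assembly GRCr8 on chromosome 7, and in rn5 it overlaps Mcrs1 on the other strand. Hippocampal reads were counted without strand, so reads of Kcnh3 and Mcrs1 cannot be told apart where they overlap. Kcnh1 was at 6.72 and 19.7 CPM against 39.7 to 67.7 CPM and Kcnh7 at 25.2 and 26.6 CPM against 33.3 to 67.5 CPM. Kcnh2, the ERG channel of cardiac repolarisation, was at 132 and 70.2 CPM against 24.8 to 39.1 CPM.

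Of the 8 silent Kv records described, 4 were lower in both controls 1 and 2, 1 was higher and 3 overlapped. Kcnv1, a silent subunit of Kv2 channels, was at 1.93 and 1.67 CPM in controls 1 and 2, 36.5 CPM in control 3 and 36.3, 27.8, 28.5 and 26.8 CPM in VNS 1 to 4. Kcng2 was at 1.98 and 4.33 CPM, 28.0 CPM in control 3 and 49.4, 31.2, 32.1 and 33.8 CPM after VNS. Kcng1 was at 2.75 and 9.31 CPM against 36.1 to 84.8 CPM. Kcng4, of the same silent class, lay on the other side at 66.2 and 40.9 CPM against 21.5 to 27.4 CPM. Kcnf1 overlapped and had its lowest value in a VNS library, with 62.2 and 18.6 CPM in controls 1 and 2, 55.3 CPM in control 3 and 5.11, 43.8, 32.1 and 33.7 CPM in VNS 1 to 4.

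In the remaining classes Kcnq5 was at 8.13 and 19.5 CPM in controls 1 and 2 against 62.6 to 103 CPM. Kcnq3 overlapped, because control 1 held the highest value of all, 375 CPM, and control 2 the lowest, 81.1 CPM. Sodium-activated Kcnt1 and Kcnt2 went opposite ways. Kcnt1 was at 31.7 and 42.0 CPM against 9.60 to 22.6 CPM, and Kcnt2 at 3.81 and 8.53 CPM against 28.1 to 42.9 CPM. Of the 12 two-pore leak channel records (Kcnk) 10 overlapped. The acid-sensitive Kcnk3 and Kcnk9 did not, at 10.8 and 16.5 CPM against 1.22 to 5.54 CPM and at 25.1 and 41.3 CPM against 8.22 to 22.4 CPM. Kcnip3, a calcium-binding Kv4 partner, was at 5.46 and 9.28 CPM against 17.2 to 38.3 CPM, whereas the Kv4 subunit Kcnd2 itself overlapped, at 172 and 128 CPM against 140 to 247 CPM.

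**Figure D3:**
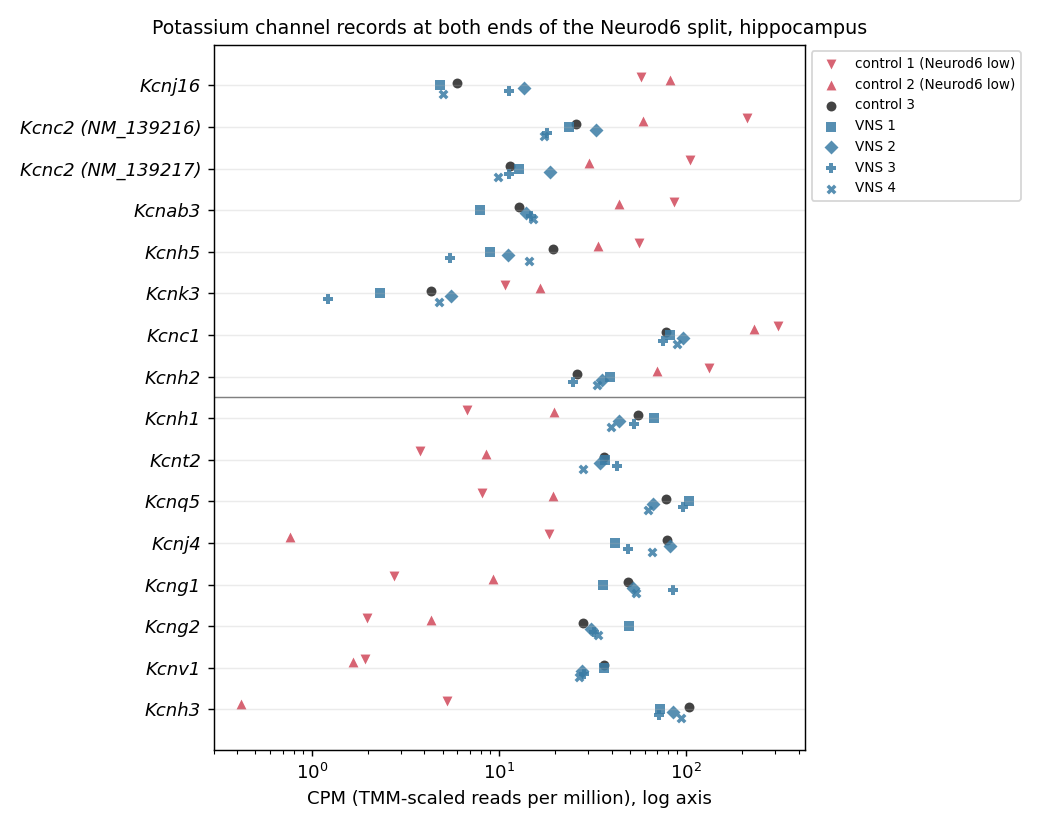
CPM on a log axis of the 8 records with the highest (upper rows) and the 8 with the lowest (lower rows) ratio between controls 1 and 2 and the other libraries, 1 symbol per hippocampal library. Red triangles (controls 1 and 2) lie to the right of all other symbols in the upper rows and to the left in the lower rows, while the black point (control 3) lies with or next to the blue VNS symbols.

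Controls 1 and 2 also differed from each other. Of the 78 described records 32 (41.0%; 12.7% of all records tested) were at least 2-fold apart between them, 21 higher in control 1 and 11 higher in control 2. Higher in control 1 were Kcnq3, both Kcnc2 records, Kcnj9 (89.1 and 34.8 CPM), Kcnk1 (77.4 and 37.3 CPM) and Kcnf1. Higher in control 2 were Kcnc4, Kcna3 (7.74 and 26.3 CPM) and Kcnk10 (4.01 and 12.5 CPM). The thalamic marker Prkcd, at 794 CPM in control 1 and 11.8 CPM in control 2, differed between the same libraries; its part was not tested.

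Promoter sequence was available for some of the records at both ends, and the 250 bases before the annotated start are shown for 3 of each. Windows of Kcnc2, Kcnc1, Kcng2 and Kcnh1 were also available and are not shown. The windows are from RefSeq on assembly GRCr8, whose coordinates differ from those of the rn5 count files, and are printed 5′ to 3′ on the gene's strand. Capitals mark CAGATG or CAGCTG, the E-box letters searched on both strands (CATCTG is the other strand of CAGATG, and CAGCTG reads alike on both).
Kcnj16 (high in controls 1 and 2; chr10:96517074-96517323, plus strand): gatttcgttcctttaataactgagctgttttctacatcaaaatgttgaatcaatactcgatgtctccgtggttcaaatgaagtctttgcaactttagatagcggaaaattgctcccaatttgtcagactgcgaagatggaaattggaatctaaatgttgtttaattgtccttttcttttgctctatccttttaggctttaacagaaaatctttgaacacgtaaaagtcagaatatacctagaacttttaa
Kcnab3 (high in controls 1 and 2; chr10:54546388-54546637, plus strand): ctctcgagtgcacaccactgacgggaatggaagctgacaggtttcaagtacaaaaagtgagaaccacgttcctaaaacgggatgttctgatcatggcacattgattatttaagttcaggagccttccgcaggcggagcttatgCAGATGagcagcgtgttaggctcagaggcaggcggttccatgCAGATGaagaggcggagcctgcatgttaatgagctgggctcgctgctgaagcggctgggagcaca
Kcnh5 (high in controls 1 and 2; chr6:99643857-99644106, minus strand): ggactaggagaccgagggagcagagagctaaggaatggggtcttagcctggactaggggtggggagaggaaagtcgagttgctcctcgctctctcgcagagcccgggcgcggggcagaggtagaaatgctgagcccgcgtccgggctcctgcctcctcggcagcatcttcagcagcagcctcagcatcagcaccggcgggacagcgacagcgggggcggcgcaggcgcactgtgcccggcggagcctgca
Kcnj4 (low in controls 1 and 2; chr7:112954548-112954797, minus strand): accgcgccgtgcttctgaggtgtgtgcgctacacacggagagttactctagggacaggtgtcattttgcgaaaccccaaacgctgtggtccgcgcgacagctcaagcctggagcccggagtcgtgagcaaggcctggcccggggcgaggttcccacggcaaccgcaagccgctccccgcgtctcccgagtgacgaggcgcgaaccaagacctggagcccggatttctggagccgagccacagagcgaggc
Kcnq5 (low in controls 1 and 2; chr9:31891282-31891531, minus strand): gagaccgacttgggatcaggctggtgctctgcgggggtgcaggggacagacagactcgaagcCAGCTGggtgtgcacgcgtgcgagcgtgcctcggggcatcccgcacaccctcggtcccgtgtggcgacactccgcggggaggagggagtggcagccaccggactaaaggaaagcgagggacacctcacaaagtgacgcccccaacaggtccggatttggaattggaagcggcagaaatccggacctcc
Kcnt2 (low in controls 1 and 2; chr13:54215057-54215306, plus strand): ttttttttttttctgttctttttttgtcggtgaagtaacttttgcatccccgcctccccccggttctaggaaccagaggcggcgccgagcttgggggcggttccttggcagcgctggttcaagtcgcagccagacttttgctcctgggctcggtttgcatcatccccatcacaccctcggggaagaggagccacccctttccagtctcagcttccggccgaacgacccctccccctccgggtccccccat

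The Kcnab3 window held CAGATG at 2 places and the Kcnq5 window CAGCTG at 1, while those letters were not in the other 4 windows shown. Of the windows at both ends not shown, 1 of Kcnc2 held CAGATG, and the rest held neither. CAGCTG was in 13 of 54 Kcn promoter windows (24.1%, 50 genes) and in 12.0% of all 33469 windows of the same length. CAGATG was in 2 Kcn windows (3.70%, against 14.0% of all), and the TATA letters TATAAA in 1 (1.85%, against 12.9% of all). The median number of CpG dinucleotides was 12.5 in Kcn windows and 5 in all. The Kcnj16 window had 6 CpG and 33.6% G and C, the Kcnh5 window 20 CpG and 67.6%, and the Kcnj4 window 26 CpG and 65.6%. Kcnh2, Kcnk3, Kcng1, Kcnv1 and Kcnh3 are named only.

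The comparison of VNS with control rats asked which channel transcripts differed after stimulation in the hippocampus. None of the 78 described records passed an adjusted p of 0.05 (edgeR quasi-likelihood test, adjusted over all 12728 records tested), and none of all records did (0.0%). By limma-voom 0 Kcn records were called as well, and by DESeq2 1, Kcnh5. Adjusted p ran from 0.40 to 0.995 over the Kcn records. At an unadjusted p under 0.05, 1 Kcn record was higher after VNS (1.28%; 4.79% of all records) and 15 were lower (19.2%; 7.28% of all records). All 78 described records passed the filter on low counts. Log2 fold changes were above 0 for 36 and below 0 for 42, with a median of -0.15, against -0.007 over all records.

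The 15 records lower after VNS at that unadjusted level were Kcna2, Kcna6, Kcnc1, both Kcnc2 records, Kcnab3, Kcng4, Kcnh2, Kcnh5, Kcnj10, Kcnj12, Kcnj16, Kcnk3, Kcnk9 and Kcnt1. In all 15, both controls 1 and 2 were above every VNS library. These libraries are among the controls of the fit that selected the records, so this order is in part built in. Control 3 lay within the VNS range in 14 of the 16 records with an unadjusted p under 0.05, the exceptions being Kcnh5 and Kcnip2. Neither count was set beside its share over all records. VNS and control libraries did not overlap in 3 of the 78 records. Kcnip2 and Kcng2 were higher in every VNS library (4.67% of all records) and Kcnh5 was lower (4.61% of all records).

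Kcnh5, a channel of the ether-à-go-go family, had the smallest p of the Kcn records. The record NM_133610 lies on chromosome 6 from 107294666 to 107578241 (rn5, minus strand, 11 exons). It was at 56.4, 33.8 and 19.4 CPM in controls 1 to 3 and at 8.96, 11.2, 5.49 and 14.4 CPM in VNS 1 to 4. Every control was above every VNS library, and control 3 was the nearest to them. The log2 fold change was -1.84 (SE 0.40, adjusted p = 0.40, edgeR). Without control 3 it was -2.13 (adjusted p = 0.0072), and without controls 1 and 2, which leaves a single control whose spread is taken from the VNS group, it was -0.93 (SE 0.39, unadjusted p = 0.040, adjusted p = 0.99995). DESeq2 gave -1.86 (adjusted p = 0.028). In CPM across the 7 libraries the records most like it among 72 were Kcnj12 (Pearson r of log2 CPM 0.96), Kcna6 (0.94) and Kcna2 (0.92). These are descriptions over 7 points that share libraries, with the split by Neurod6 among them.

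Kcnip2, a calcium-binding Kv4 partner, was low throughout, at 0.45, 0.31 and 0.37 CPM in controls 1 to 3 and 0.53, 0.68, 1.22 and 1.14 CPM in VNS 1 to 4. The record held only 22, 17 and 18 reads in controls 1 to 3 and 36, 14, 6 and 46 in VNS 1 to 4. Its log2 fold change was 1.18 (SE 0.47, adjusted p = 0.40, edgeR), and 1.18 (SE 0.87) without controls 1 and 2. Only 1 of its 3 records held enough reads, and reads shared by them were assigned to none. Kcng2 had no overlap either, but 28.0 CPM in control 3 was near the lowest VNS value of 31.2 CPM.

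The other records with the smallest p had log2 fold changes smaller in size without controls 1 and 2, in the fit that leaves a single control. The part of controls 1 and 2 in these differences was not tested further. Kcnj16 had a log2 fold change of -2.52 (SE 0.77), which was 0.50 (SE 0.58) without controls 1 and 2. Kcnab3 was at -1.89 (SE 0.55) and at 0.0013 (SE 0.36) without them. The Kcnc2 records were at -2.09 (SE 0.62) and -1.89 (SE 0.64), and at -0.16 and 0.19 without them. Kcnc1 was at -1.27 (SE 0.39) and 0.14 (SE 0.21), Kcna2 at -0.93 (SE 0.29) and -0.02 (SE 0.20), and Kcna6 at -1.12 (SE 0.36) and -0.19 (SE 0.36). Kcnj10 was at -0.60 (SE 0.20) and -0.16 (SE 0.24), and Kcnj12 at -1.30 (SE 0.45) and -0.21 (SE 0.45). None of these passed in either fit (adjusted p = 0.40 and 0.99995, edgeR). Without controls 1 and 2, the number of the 78 records with an unadjusted p under 0.05 was 1, Kcnh5, the median log2 fold change was 0.00075, and 3 records were beyond 1 in size, against 20 with all libraries.

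Without control 3 the fit set VNS against controls 1 and 2 alone, so that stimulation and the split by Neurod6 cannot be told apart in it. Of 81 Kcn records tested, 13 were then called higher after VNS (6.24% of all records) and 14 lower (4.41% of all records). The former were led by Kcnv1 (log2 fold change 4.05, SE 0.23, adjusted p = 0.00017, edgeR) and Kcng2 (3.54, SE 0.38, adjusted p = 0.0018). The latter were led by Kcnc1 (-1.66, SE 0.17, adjusted p = 0.0015).

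**Figure D4:**
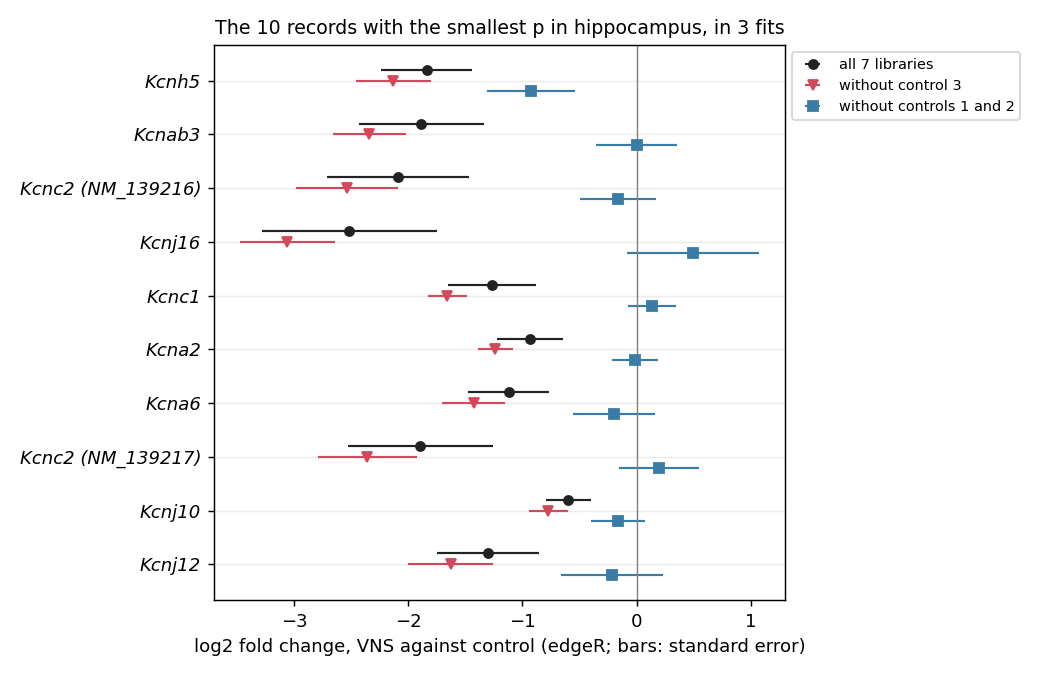
Log2 fold change of VNS against control (horizontal axis, edgeR; bars are standard errors) for the 10 Kcn records with the smallest p, in fits with all 7 hippocampal libraries (black), without control 3 (red) and without controls 1 and 2 (blue). Black and red points lie below 0 for all 10 records, and blue points lie between -0.93 (Kcnh5) and 0.50 (Kcnj16).

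Proteins that join potassium channels under other gene names were examined beside them. Of 27 such genes 23 were matched, and 0 of their 23 records tested were called (edgeR). At an unadjusted p under 0.05, 3 were higher after VNS (Akap5, Calm2 and Calm3, an anchor of M-current signalling and calmodulins; 4.79% of all records) and 3 lower (Dpp10, Lrrc38 and Cntn2; 7.28% of all records). The median log2 fold change was 0.02. By the Neurod6 level of the libraries 4 were higher in both controls 1 and 2 (17.3% of all records), 7 lower (18.3% of all records) and 12 overlapped. Akap5 was at 6.62 and 8.48 CPM in controls 1 and 2, 46.5 CPM in control 3 and 56.6, 53.9, 108 and 57.2 CPM after VNS. Dpp10, a Kv4 partner, had 58.5, 75.8 and 38.2 CPM in controls 1 to 3 and 18.2, 34.8, 33.1 and 24.3 CPM after VNS.

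The cortex gave far less depth, with 329130 to 435296 counts and 2361 to 4069 Kcn reads a library. Per the file header its reads were counted on the record's own strand, whereas the first read of a stranded TruSeq kit is, as a rule, from the strand opposite the transcript. Records that overlap a record on the opposite strand held 35.5% of cortex counts and 9.58% of hippocampal counts. A cortex count is therefore given for the record as counted and not as the level of its gene. Of 26604 Kcn reads, 66.8% fell in Kcnk15 (9284) and Kcna6 (8485). Kcnk15, a two-pore family member, was at 3338 CPM on average in cortex and 5.39 CPM in hippocampus, and Kcna6 at 3062 and 155 CPM. Kcnab2, the record with the highest hippocampal level per kb, was at 148 CPM in cortex and 286 CPM in hippocampus.

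**Figure D5:**
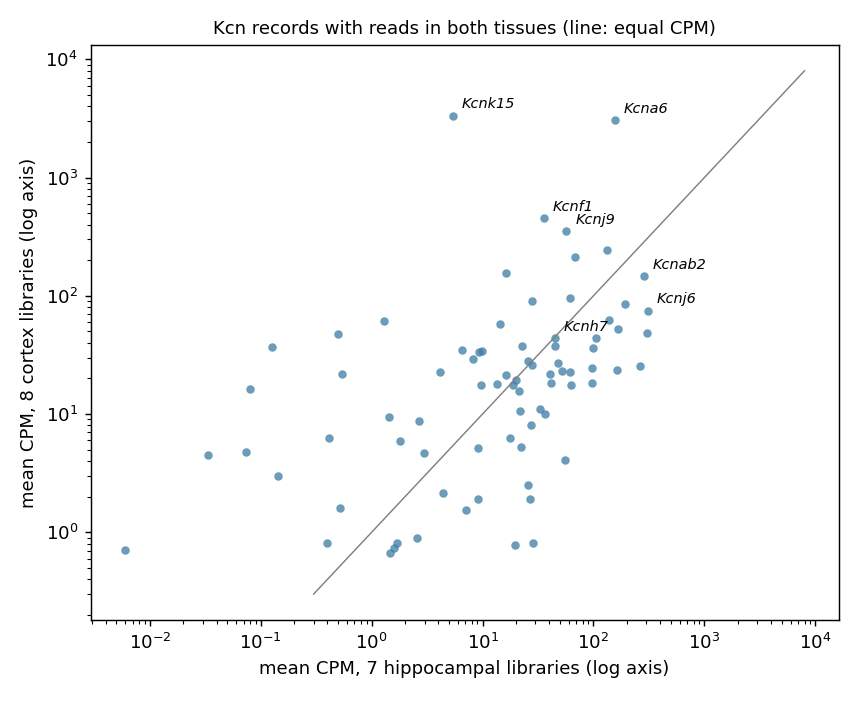
Mean CPM over 8 cortex libraries (vertical log axis) against mean CPM over 7 hippocampal libraries (horizontal log axis) for the 79 Kcn records with reads in both tissues, 1 point each, with a line of equal CPM. Kcnk15 and Kcna6 lie at 3338 and 3062 CPM in cortex, apart from all other records.

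In cortex 29 Kcn records were tested, and 0 passed the threshold (edgeR, 0.0257% of all 3884 records). None had an unadjusted p under 0.05 in either direction, against 1.18% of all records higher and 1.21% lower after VNS. Both counts were also 0 by DESeq2 and limma-voom. The smallest p were those of Kcnh7 and Kcna6. Kcnh7 held 26, 16, 14 and 22 reads in controls 1 to 4 and 14, 4, 7 and 16 in VNS 1 to 4 (log2 fold change -0.96, SE 0.48, adjusted p = 0.99975, edgeR). Kcna6 held 656, 996, 542 and 1387 reads in the controls and 1344, 1338, 777 and 1445 after VNS (log2 fold change 0.47, SE 0.24, adjusted p = 0.99975, edgeR). The libraries of both groups overlapped for both records. The hippocampal and cortical VNS effects were also compared in a single fit, in which 0 of 54 Kcn records and 0.0% of all 7450 records differed (edgeR, smallest adjusted p of a Kcn record 0.54). At an unadjusted p under 0.05 there were 8 of these 54 Kcn records and 605 of the 7450.

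The 32 records not described held few or no reads, and 21 held none in the 7 libraries. Of the 32, 25 belong to genes with 2 or more records, among them Kcnd3, Kcnip1, Kcnn2, Kcnn4 and Kcnj1, and reads shared between records of a gene were not assigned, so their low counts say little about the gene. Just inside the threshold was Kcnk16, with 28, 7 and 10 reads in controls 1 to 3 and 38, 4, 3 and 24 in VNS 1 to 4. Just outside it were Kcnv2, with 18, 8 and 6 reads in the controls and 100, 0, 0 and 2 after VNS, and Kcna10, with 32, 12 and 6 reads in the controls and 0 in each VNS library.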

How the data were processed

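The authors deposited raw read counts for each RefSeq transcript, from featureCounts 1.4.6-p2 according to the file headers, which give strand option 1 for cortex and none for hippocampus. Build rn5, Bowtie2, Trimmomatic, SAMtools 0.1.19 and FastQC 0.10.1 are listed in the submitters' processing notes. Symbols came from a RefSeq table of assembly GRCr8, which matched 17339 of 18278 records.

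Records kept by filterByExpr (minimum count 10, minimum total 15) were scaled by TMM and tested in each tissue with glmQLFit and glmQLFTest (two-sided) in edgeR 4.0.16 (R 4.3.3), with Benjamini-Hochberg adjustment over all records and a threshold of 0.05. DESeq2 1.42.0, limma-voom (limma 3.58.1), other scalings and filters, and leaving out libraries were alternatives. Leaving out controls 1 and 2 together was planned with their Neurod6 values known. On simulated hippocampal data, 20 of 99 records set to 2-fold and 78 of 99 set to 4-fold were recovered.

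The members, lists and tests were chosen with earlier results of these data known. Records named are the 2 highest per class in CPM per kb, the 10 with the smallest p in hippocampus, the 8 at each end of the Neurod6 ratio (mean at least 1 CPM) and the 2 with the smallest p in cortex. Others were chosen after their values were seen. Some records that this rule or the counts include are not reported here by name. Replicates carry no pairing in the labels. The name of 1 cortex column has an extra final letter beside its sample's label.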

Additional observations from a re-analysis of the deposited data

Results flagged for a closer look

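Single libraries that lay far from the others of their group were sought by Dixon's test in 33 groups of 4 libraries, where chance gives about 1 in 20. Kcng2 in VNS 1 of the hippocampus was at 49.4 CPM, above the 31.2 to 33.8 CPM of the other VNS libraries. Kcna6 in VNS 3 of the cortex was at 2092 CPM, below the 3975 to 4171 CPM of the other VNS libraries.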

How the results depend on the processing

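In hippocampus, the number of all records called was 0 in the edgeR test as reported and 17 by DESeq2, of which Kcnh5 was 1. It ranged from 0 to 1377 when 1 library was left out, the highest value being without control 3. The number of Kcn records with an unadjusted p under 0.05, 16 as reported, ranged from 8 (without control 1) to 41 (without control 3), and was 1 without controls 1 and 2. Without those libraries the log2 fold change turned positive for Kcnab3 (0.0013), Kcnj16 (0.50), Kcnc1 (0.14) and the Kcnc2 record NM_139217 (0.19). In cortex, the number of all records called, 1 as reported, was 5 with no filter, 6 with a filter of 1 CPM in 3 libraries, 0 by limma-voom, 2 without records overlapping the other strand and 0 to 4 when 1 library was left out. The number of Kcn records with an unadjusted p under 0.05, 0 as reported, was 5 with no filter, 2 with the 1 CPM filter and 0 to 2 when 1 library was left out. The difference between tissues had 0 to 244 records called when 1 hippocampal library was left out, the 244 being without control 3. The log2 ratios by Neurod6 level kept their sign in all 32 values under other scalings. Low counts limited the cortex, where 29 of 110 Kcn records passed the count filter, and VNS 3 of the hippocampus; the parts of depth and of the strand option in the cortex counts were not tested. No paired analysis was possible because the labels give no shared replicate numbers.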
